A study of Mus musculus with 9 samples.

Results

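The genes of the oligodendrocyte lineage and of myelin were followed through the medial prefrontal cortex (mPFC) of mice after chronic restraint stress, with and without Fkbp5. They were chosen by symbol and numbered 32 of the 24532 genes measured. By the stage they mark, 3 were precursor genes (Pdgfra, Cspg4, Sox6), 4 were transcription factors of the whole lineage (Olig1, Olig2, Sox8, Sox10), 6 were genes of differentiating cells (Gpr17, Bmp4, Nkx2-2, Enpp6, Bcas1, Myrf) and 19 were myelin genes. The myelin genes were Mbp, Mog, Mag, Mobp, Cnp, Mal, Cldn11, Ermn, Opalin, Gjb1, Ugt8a, Aspa, Fa2h, Tspan2, Trf, Gpr37, Cntn2, Nkx6-2 and Enpp2.

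RNA-seq was done on 9 male mice, C57BL/6 by the labels and C57BL/6J by the study's methods, with 3 mice and 3 libraries in each group. Mice of the CT group were wild-type and not stressed, mice of the WT_ST group were wild-type and restrained, and mice of the KO_ST group were restrained Fkbp5-/- animals. Restraint lasted 6 h a day for 3 weeks. The labels give an age of 11 weeks for every mouse, and the study's methods give 8 weeks without naming the time point. An age of 8 weeks at the start of the 3 weeks of restraint would match the labels. By the study's methods the Fkbp5-/- mice came from a line backcrossed to C57BL/6J, and the design held no unstressed knockout, so that KO_ST differed from CT in both genotype and stress.

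Oligodendrocytes wrap axons in myelin, a stack of compacted membrane that speeds the conduction of nerve impulses. They arise in the adult cortex from precursor cells that respond to platelet-derived growth factor through the receptor Pdgfra. On leaving this state a cell passes through a short-lived stage marked by Gpr17 and Enpp6, switches on the myelin regulator Myrf and then makes the proteins and lipids of the sheath. Prefrontal myelin is known to change with social experience and with stress.

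All 32 genes averaged more reads than the minimum of 30 required for a test, from 97.8 for Bmp4 to 36781 for Mbp, and the lowest value in a single mouse was 56 reads. Libraries held 43778471 to 61150128 reads on genes, of which these 32 genes took 0.173% to 0.291%. Fkbp5 had an FPKM (fragments scaled to gene length and library size) of 6.46 to 7.61 in CT, 9.47 to 10.3 in WT_ST and 3.59 to 4.69 in KO_ST, where it kept 625 to 907 reads per mouse. Its level over the whole gene was lower in KO_ST, as labelled, but does not measure the deleted part alone. Differences are given as log2 fold changes of quantile-normalized log2(FPKM + 1), which understate changes of genes near an FPKM of 1. A gene was called different at an unadjusted p under 0.05 with a fold change above 1.2, by limma's moderated test on 3 mice against 3. Adjusted p-values are from the same limma fit after Benjamini-Hochberg adjustment over the 14370 genes tested, and 0 of the 32 genes reached an adjusted p under 0.05 in any comparison. Over all tested genes 0.0348% did so in WT_ST against CT, 0.0626% in KO_ST against CT and 0.153% in KO_ST against WT_ST. In such tissue RNA, fewer cells of a type and less RNA per cell cannot be told apart.

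Promoters of 5 genes are shown, each with a single start site in the promoter set used. Sox8 and Nkx2-2 were called, and Mobp, Mog and Opalin were picked from the myelin genes that moved together from mouse to mouse. The called gene Gpr17 had no promoter in the set, and promoters of the other myelin genes are not shown. Those shown are RefSeq sequences of GRCm38.p6, read 5′ to 3′ on the strand of the gene, and end at the base before the transcription start. Capitals mark SOX cores (ACAAAG or AACAAT), E-boxes (CAGCTG or CATCTG) and MYRF motifs (CTGGCAC or CTGGTAC) on either strand. The promoter of Mobp, which encodes a structural myelin protein, lies at chr9:120149492-120149741 on the plus strand. The Mog, Opalin, Sox8 and Nkx2-2 promoters lie on the minus strand at chr17:37023399-37023648, chr19:41077114-41077363, chr17:25570687-25570936 and chr2:147186403-147186652.
Mobp: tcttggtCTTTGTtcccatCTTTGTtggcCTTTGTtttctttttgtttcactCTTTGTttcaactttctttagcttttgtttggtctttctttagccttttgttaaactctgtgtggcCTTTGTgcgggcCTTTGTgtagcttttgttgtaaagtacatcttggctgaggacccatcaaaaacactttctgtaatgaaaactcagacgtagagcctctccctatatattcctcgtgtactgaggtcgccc
Mog: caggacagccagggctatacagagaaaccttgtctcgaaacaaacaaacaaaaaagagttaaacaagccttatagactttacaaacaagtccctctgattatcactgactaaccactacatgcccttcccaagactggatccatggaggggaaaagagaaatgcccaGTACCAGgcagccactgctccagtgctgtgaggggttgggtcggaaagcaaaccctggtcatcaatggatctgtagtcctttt
Opalin: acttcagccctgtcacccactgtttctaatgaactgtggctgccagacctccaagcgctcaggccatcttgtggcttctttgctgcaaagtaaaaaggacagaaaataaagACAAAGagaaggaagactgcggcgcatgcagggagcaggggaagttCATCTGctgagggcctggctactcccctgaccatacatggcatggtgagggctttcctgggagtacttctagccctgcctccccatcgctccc
Sox8: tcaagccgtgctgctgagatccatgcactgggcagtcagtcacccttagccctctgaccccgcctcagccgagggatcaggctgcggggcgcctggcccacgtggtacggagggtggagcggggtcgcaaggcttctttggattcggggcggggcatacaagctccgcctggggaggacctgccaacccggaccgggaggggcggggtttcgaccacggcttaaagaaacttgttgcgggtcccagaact
Nkx2-2: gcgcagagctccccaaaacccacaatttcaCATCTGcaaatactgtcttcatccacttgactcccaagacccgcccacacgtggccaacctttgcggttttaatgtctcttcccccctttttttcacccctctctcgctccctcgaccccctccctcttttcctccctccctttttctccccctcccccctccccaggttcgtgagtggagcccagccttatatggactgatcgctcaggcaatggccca

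In these windows Mobp held 6 SOX cores of the ACAAAG form, all on the reverse strand and between 243 bases and 120 bases before the start. Mog held a MYRF motif at 83 bases before its start, and Opalin a SOX core at 139 and an E-box at 93. Sox8 held none of these letters, and Nkx2-2 a CATCTG at 220 bases before its start. Over windows from 250 bases before to 50 after each start, the table held 34 promoters of 23 of the genes, several of which overlap because they belong to the same gene. ACAAAG was found in 13 of these 34 (38.2%) and in 18.7% of all 32851 mouse promoters. Of the 23 genes, only Cnp, Gjb1, Mag, Mobp, Opalin, Sox6 and Tspan2 held these 13, so that several belonged to the same gene. AACAAT was found in 5 (14.7%) against 10.7%. CTGGCAC was found in 4 (11.8%) against 5.01% and CTGGTAC in 1 (2.94%) against 2.24%. CAGCTG was found in 3 (8.82%) against 16.3%, and CATCTG in 8 (23.5%) against 17.2%. The glucocorticoid receptor element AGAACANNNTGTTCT was found in 0 of the 34 and in 3 of all promoters, and its part AGAACA in 4 (11.8%) against 19.0%. These shares describe letters only and were not tested.

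Myelin genes moved together between individual mice, and more so than between groups. Mbp, the myelin basic protein that binds the inner faces of the membrane, was the most abundant of the 32 genes. Its FPKM was 262, 262 and 486 in CT replicates 1, 2 and 3. It was 252, 422 and 410 in the WT_ST mice and 275, 312 and 393 in the KO_ST mice. CT replicate 3 was the highest and WT_ST replicate 1 the lowest of all mice, so that both wild-type groups spanned most of the range.

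Mog, a glycoprotein of the outermost myelin lamella, had an FPKM of 9.79, 9.50 and 19.1 in CT, 10.5, 19.0 and 15.0 in WT_ST and 11.2, 12.9 and 14.4 in KO_ST. Mag, the adhesion protein that faces the axon, had 25.5, 21.1 and 45.4 in CT, 29.0, 42.6 and 36.5 in WT_ST and 28.6, 35.3 and 36.9 in KO_ST. For both, CT replicates 1 and 2 were the lowest by FPKM and CT replicate 3 the highest, and all groups overlapped. Mobp had an FPKM of 19.2, 17.9 and 34.9 in CT, 23.8, 34.8 and 32.2 in WT_ST and 24.6, 32.6 and 30.3 in KO_ST. Cnp, the phosphodiesterase of non-compact myelin, had 47.6, 43.2 and 79.4 in CT, 50.3, 71.1 and 60.4 in WT_ST and 50.5, 56.0 and 59.8 in KO_ST. CT replicates 1 and 2 were again the lowest and CT replicate 3 the highest for both. Cnp overlaps Dnajc7, which averaged 7511 reads, and Nkx6-2 overlaps Inpp5a, which averaged 2207.

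**Figure D1:**
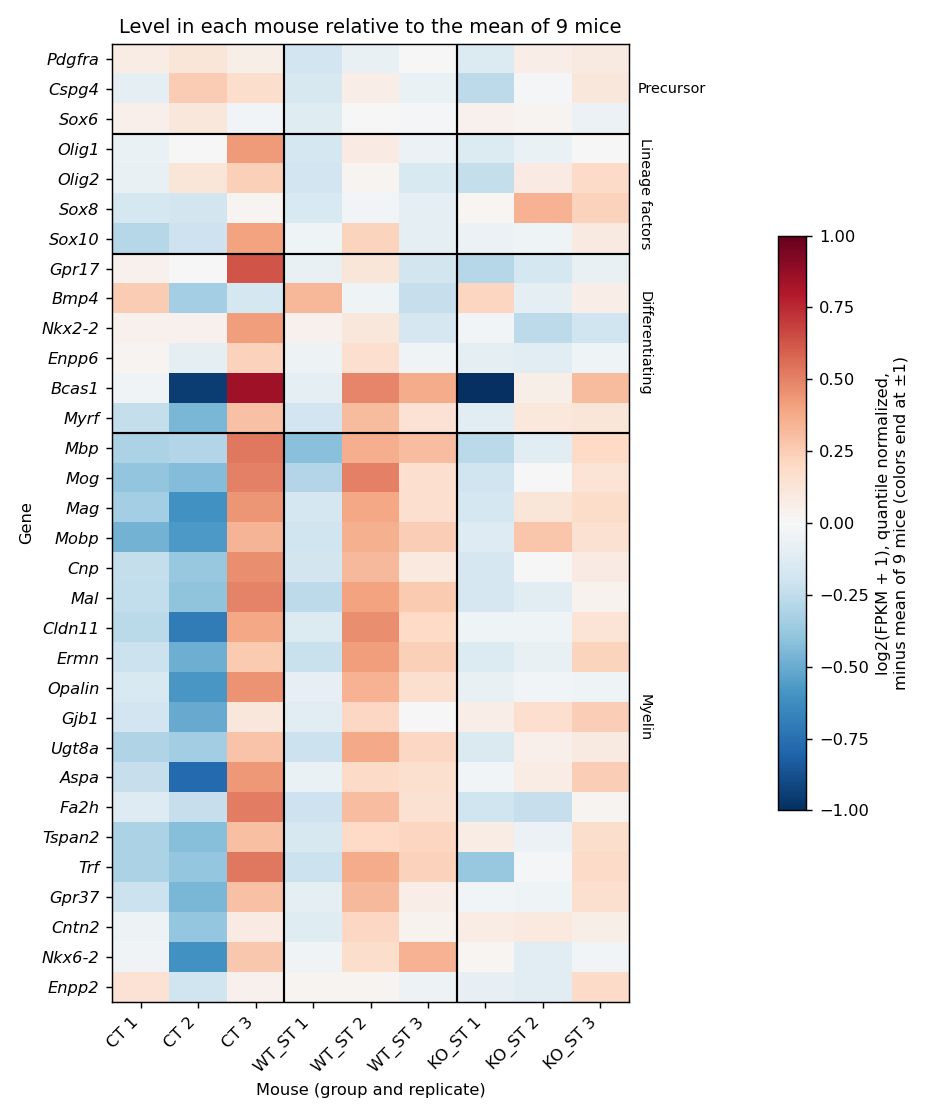
Quantile-normalized log2(FPKM + 1) of the 32 genes (vertical) in each of the 9 mice (horizontal), minus the gene's mean over the 9 mice; red is above and blue below that mean. All 19 myelin genes were above it in CT 3 and WT_ST 2 and below it in CT 2, while the 3 precursor genes were above it in CT 2.

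Relative to the mean of the 9 mice on the log2 scale, CT replicate 3 and WT_ST replicate 2 were above in 19 of 19 myelin genes, WT_ST replicate 3 in 18 and KO_ST replicate 3 in 17. CT replicate 2 was above in 0, CT replicate 1 and WT_ST replicate 1 in 1 each, KO_ST replicate 1 in 4 and KO_ST replicate 2 in 7. CT replicate 2 was the lowest of all mice in 18 of the 19 genes. Within CT, replicate 3 was the highest in 18 of the 19. The highest and lowest mouse differed most for Aspa, the aspartoacylase that breaks down N-acetylaspartate, at 2.95-fold of its FPKM, and least for Enpp2, the enzyme autotaxin, at 1.32-fold. Enpp2 is also made by choroid plexus, whose markers summed to an FPKM of 0.510 to 1.16 in CT, 0.717 to 0.798 in WT_ST and 0.875 to 0.985 in KO_ST.

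The spread within the wild-type groups was larger for myelin genes than for precursor genes. The median SD of log2 levels, pooled over the groups, was 0.0923 for precursor genes, 0.175 for lineage factors, 0.243 for genes of differentiating cells and 0.310 for myelin genes, against 0.0911 for all tested genes. Group by group, the medians were 0.0724 for precursor and 0.454 for myelin genes in CT, 0.0961 and 0.263 in WT_ST, and 0.123 and 0.127 in KO_ST, where the sets did not differ in this way. All 19 myelin genes lay above the median of all genes in the pooled SD. Only 1.96% of tested genes had a larger SD than Mbp. The share of the variance that lay between the 3 groups had a median of 15.7% for the myelin genes and 25.7% for all tested genes, and was 3.58% for Mbp.

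Bcas1, a gene of early myelinating cells, had the largest spread of the 32. Its FPKM was 11.6, 5.64 and 22.2 in CT, 11.0, 16.9 and 15.7 in WT_ST and 5.32, 12.2 and 14.8 in KO_ST, a 4.18-fold range. CT replicate 2 and KO_ST replicate 1 stood below all other mice.

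Averaged over the 19 myelin genes, the log2 level was 3.99 ± 0.42 in CT, 4.21 ± 0.25 in WT_ST and 4.11 ± 0.12 in KO_ST (SD, n = 3 each). From the highest down, the mice were CT replicate 3 at 4.46, WT_ST replicate 2 at 4.42, WT_ST replicate 3 at 4.27, KO_ST replicate 3 at 4.23, KO_ST replicate 2 at 4.09, KO_ST replicate 1 at 3.999, WT_ST replicate 1 at 3.94, CT replicate 1 at 3.88 and CT replicate 2 at 3.64. The group means differed by less than the SD of CT. The precursor level was 2.39 ± 0.08 in CT, 2.25 ± 0.08 in WT_ST and 2.29 ± 0.09 in KO_ST. The lineage factors averaged 3.65 ± 0.22, 3.58 ± 0.12 and 3.67 ± 0.12 in that order, and the genes of differentiating cells 2.08 ± 0.34, 2.11 ± 0.12 and 1.96 ± 0.13.

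**Figure D2:**
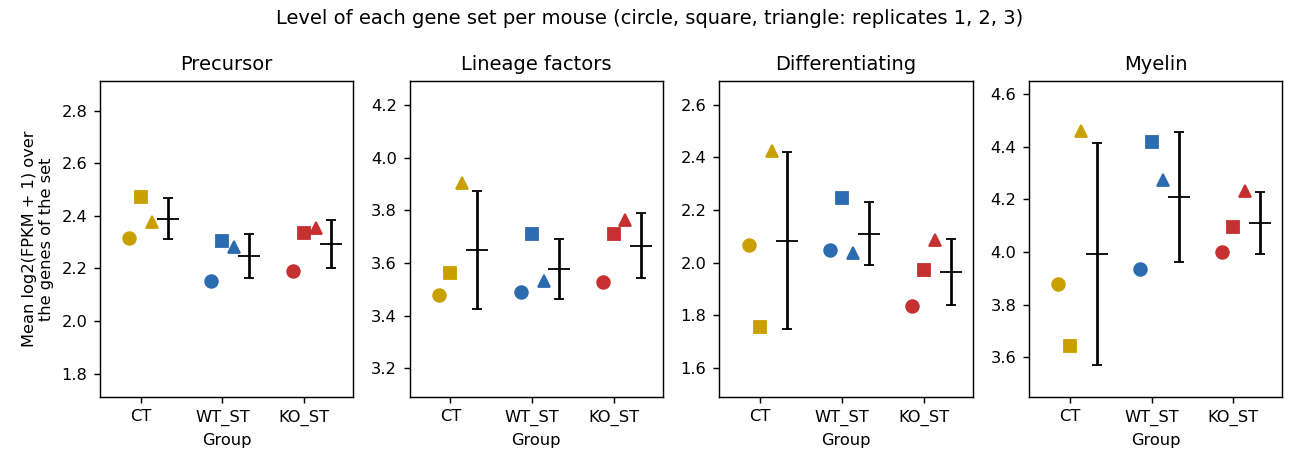
Mean quantile-normalized log2(FPKM + 1) over the genes of each set (vertical, the same span in each panel and not from 0) for every mouse by group (horizontal); bars are the group mean ± SD over 3 mice. The 3 CT mice cover the whole range of the myelin level, from 3.64 to 4.46, while the precursor level differs little between mice.

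Markers of striatal neurons, used as a check on the dissection, also differed between mice. Their mean log2 level was 2.87, 2.73 and 2.88 in CT, 2.95, 3.24 and 3.34 in WT_ST and 3.01, 2.86 and 3.11 in KO_ST. CT replicate 2 had the lowest level of these markers and of the myelin genes, and WT_ST replicates 2 and 3 had high levels of both. CT replicate 3, the highest in myelin genes, was below every WT_ST mouse in the striatal mean level. By summed FPKM of these markers it was at 97.3, above WT_ST replicate 1 at 87.8. Markers of deep-layer neurons had mean log2 levels of 3.07, 3.13 and 3.36 in CT and 3.19, 3.37 and 3.39 in WT_ST. In KO_ST they were 3.17, 3.31 and 3.16. WT_ST replicates 2 and 3 and CT replicate 3 were the highest in deep-layer markers and CT replicates 1 and 2 the lowest, as in the myelin genes. The part of striatal or deep-layer tissue in the myelin levels was not tested.

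The first comparison asked what chronic restraint did in wild-type mice. In WT_ST against CT, 0 of the 32 genes were called, where 2.47% of all tested genes were, and 1 of the 32 had an unadjusted p under 0.05, as did 7.86% of all. edgeR and DESeq2, run on the read counts, each called 0 of the 32 as well. All 19 myelin genes, and 51.3% of tested genes, had positive log2 fold changes, from 0.0038 for Enpp2 to 0.37 for Cldn11, the claudin of myelin tight junctions. Their median was 0.23, and that of all tested genes 0.0034. Mobp had a log2 fold change of 0.37 (95% interval -0.23 to 0.97, adjusted p = 0.732) and Mbp of 0.11 (-0.56 to 0.78, adjusted p = 0.935). No myelin gene separated the groups.

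This comparison rested on CT replicate 3. Without it 18 of the 32 genes were called, all higher in WT_ST, 15 of them myelin genes, while 3.77% of all genes were called. Those were Aspa, Cldn11, Cnp, Ermn, Gjb1, Gpr37, Mag, Mal, Mobp, Mog, Nkx6-2, Opalin, Trf, Tspan2 and Ugt8a among the myelin genes, with Bcas1, Myrf and Sox10. Without CT replicate 2, the lowest mouse, 0 were called. The median of the 19 myelin genes was 0.46 without CT replicate 3 and 0.049 without CT replicate 2, where 13 of 19 were positive. It was 0.36 without WT_ST replicate 1 and 0.11 without WT_ST replicate 2.

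The precursor genes all had negative log2 fold changes against CT, with a median of -0.16 in WT_ST and of -0.079 in KO_ST. Pdgfra had an FPKM of 8.72, 9.12 and 8.77 in CT, 6.97, 7.74 and 8.28 in WT_ST and 7.31, 8.44 and 8.72 in KO_ST. Every WT_ST mouse was below every CT mouse, as was the case in 6.46% of tested genes, but the log2 fold change of -0.17 (SE 0.0671, adjusted p = 0.635 by limma) was under the 1.2-fold required. Cspg4, the proteoglycan NG2 that pericytes also carry, had 2.89, 3.91 and 3.76 in CT, 2.56, 3.30 and 2.91 in WT_ST and 2.36, 2.99 and 3.43 in KO_ST. The groups overlapped for Cspg4. Sox6, which holds back differentiation and is also made by interneurons, ranged from 2.27 to 2.48 in CT, 1.92 to 2.24 in WT_ST and 2.09 to 2.27 in KO_ST.

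Other precursor genes were examined as a list of 6, of which 5 had negative log2 fold changes in WT_ST and 2 were called lower, as were 1.32% of all tested genes. In KO_ST against CT 5 of the 6 were negative as well, and 0 were called. The median of the 6 was -0.13 in WT_ST and -0.20 in KO_ST. Neu4, a sialidase, had an FPKM of 2.21, 2.79 and 2.77 in CT, 1.94, 1.82 and 1.71 in WT_ST and 1.77, 1.95 and 2.39 in KO_ST. The stressed wild-type mice were all below the CT mice, as for 6.46% of tested genes, with a log2 fold change of -0.32 (SE 0.0892, adjusted p = 0.63 by limma). C1ql1, a secreted C1q-like protein, had 4.99, 6.01 and 6.86 in CT, 4.87, 4.57 and 3.79 in WT_ST and 4.94, 4.81 and 4.28 in KO_ST, with a log2 fold change of -0.34 in WT_ST (SE 0.122, adjusted p = 0.635 by limma). The call for C1ql1 was lost in 4 of the 6 fits that left out 1 mouse. In KO_ST against CT its log2 fold change was -0.26 (SE 0.107, adjusted p = 0.523 by limma), under the 1.2-fold required.

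Among 23 tested genes of signals that act on precursor cells, 1 was called lower in WT_ST, as were 1.32% of all tested genes. Hes5, a Notch target that keeps progenitors undifferentiated and is also made by astrocytes, had an FPKM of 7.80, 11.3 and 10.03 in CT, 7.34, 5.89 and 6.35 in WT_ST and 6.58, 5.71 and 6.13 in KO_ST. Both stressed groups were below every CT mouse, as was the case for 6.46% of tested genes in WT_ST and 7.88% in KO_ST. The log2 fold changes of Hes5 were -0.49 in WT_ST (SE 0.135, adjusted p = 0.63 by limma) and -0.55 in KO_ST (SE 0.124, adjusted p = 0.458 by limma), and these share the CT mice. Of 10 astrocyte markers, 2 were called lower in WT_ST and 0 in KO_ST, against 1.32% and 2.03% of tested genes. The summed FPKM of these markers was 810 to 876 in CT, 727 to 763 in WT_ST and 746 to 858 in KO_ST. The part of astrocytes in the level of Hes5 was not tested.

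Markers of other cells differed between the groups as well. Of 10 microglia markers, 8 were called lower in WT_ST and 7 in KO_ST, against 1.32% and 2.03% of tested genes, and their summed FPKM was 193 to 244 in CT, 152 to 173 in WT_ST and 87.2 to 185 in KO_ST. Of 8 striatal markers, 3 were called higher in WT_ST and 2 in KO_ST, against 1.16% and 1.54% of tested genes, with sums of 68.7 to 97.3 in CT, 87.8 to 112 in WT_ST and 81.5 to 102 in KO_ST. Of 10 markers of endothelial cells and pericytes, the latter also carriers of Cspg4, 2 were called lower in WT_ST (Cldn5 and Vtn) and 2 in KO_ST (Cldn5 and Kdr), and their sums were 117 to 123, 105 to 120 and 95.2 to 127 in the same order. Of 10 astrocyte markers, Aqp4 and Slc1a3 were called lower in WT_ST and 0 were called in KO_ST against CT. Markers of neurons in general summed to 3887 to 4365 in CT, 4379 to 4689 in WT_ST and 4480 to 4670 in KO_ST, with 0 of 10 called in WT_ST against CT and 1, Nefm, called higher in KO_ST against CT. The part of these cells in the results on the lineage was not tested.

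**Figure D3:**
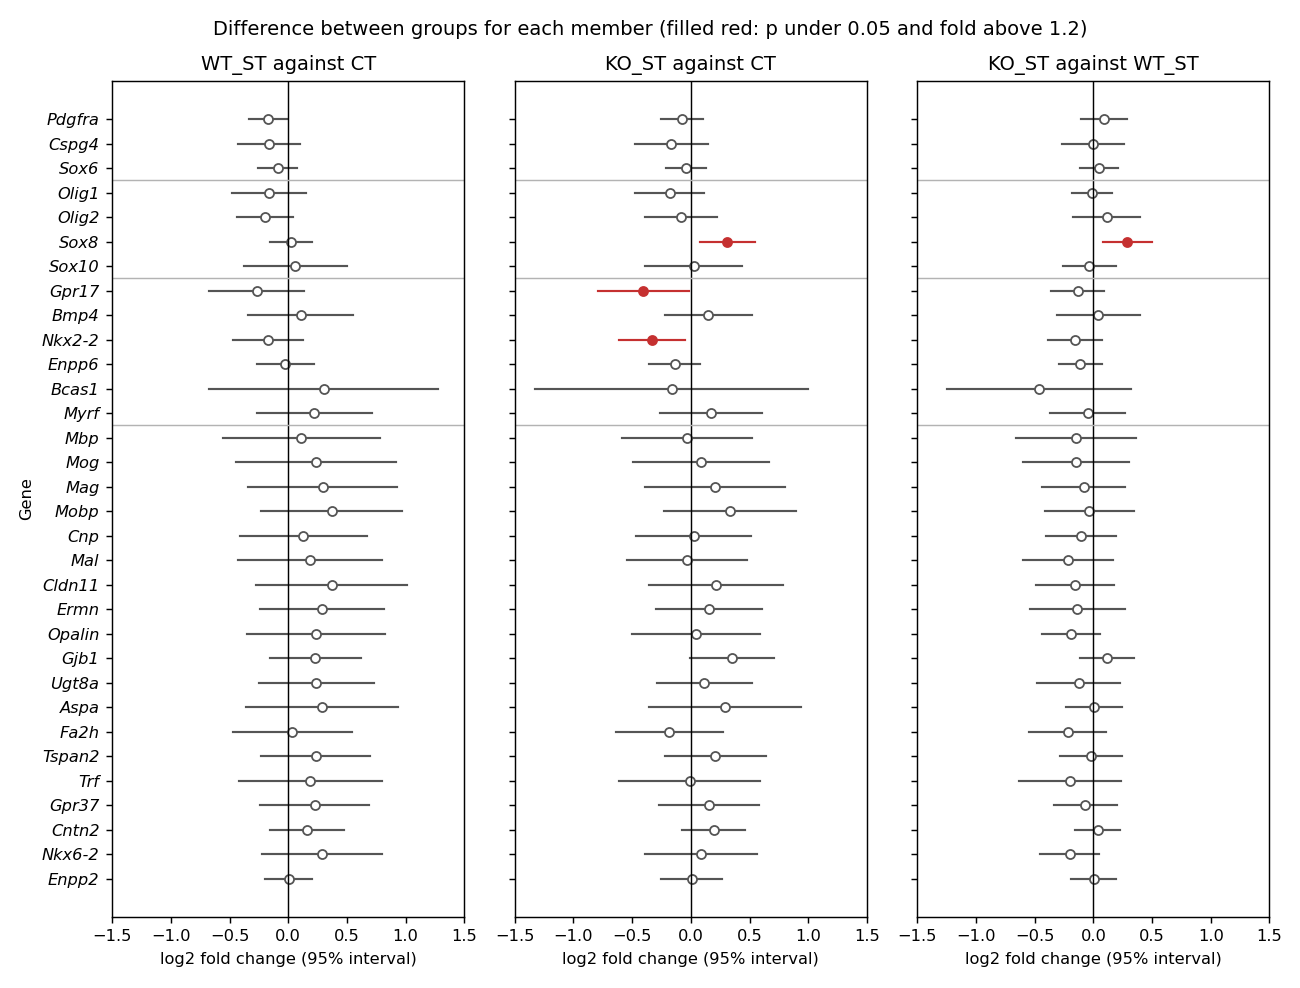
Log2 fold change (horizontal) with its 95% interval from limma for each of the 32 genes (vertical) in the 3 comparisons, which share mice; filled red points are called. All 19 myelin genes lie at or above 0 in WT_ST against CT, each with an interval that includes 0.

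KO_ST against CT combined genotype with stress. Of the 32 genes, 3 were called, where 3.56% of all tested genes were. Gpr17 and Nkx2-2, genes of cells entering differentiation, were lower in KO_ST, and Sox8 was higher, where 2.03% of tested genes were called lower and 1.54% higher. The median change of the genes of differentiating cells was -0.15 on the log2 scale and that of the myelin genes 0.12, against 0.0024 for all tested genes. Of the myelin genes 15 of 19 were positive, as were 51.0% of tested genes. Both medians turned with single CT mice. Without CT replicate 2 the myelin median was -0.039, with 5 of 19 positive, and without CT replicate 3 it was 0.32, with 19 of 19. The median of the differentiating genes was 0.029 without CT replicate 3 and -0.30 without CT replicate 2. With all mice kept, it was -0.33 with edgeR, -0.34 with DESeq2, -0.25 among genes with a mean FPKM of at least 1 and -0.23 with a pseudocount of 0.1.

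Gpr17, a receptor that marks the passage from precursor to myelinating cell, had an FPKM of 9.004, 8.75 and 14.1 in CT, 8.05, 9.46 and 7.52 in WT_ST and 6.80, 7.37 and 8.09 in KO_ST. Every KO_ST mouse was below every CT mouse, as for 7.88% of tested genes, and the WT_ST mice overlapped both groups. The log2 fold change in KO_ST was -0.40 against CT (SE 0.166, adjusted p = 0.52 by limma) and -0.13 against WT_ST (SE 0.0944, adjusted p = 0.94 by limma). Lims2, which overlaps it on the opposite strand, averaged 441 reads, or 19.0% of its reads, and had a log2 fold change of -0.05.

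Nkx2-2, a homeodomain factor that acts early in differentiation, was low, at 110 reads on average. Its FPKM was 1.19, 1.16 and 1.88 in CT, 1.12, 1.29 and 0.857 in WT_ST and 1.03, 0.738 and 0.857 in KO_ST. The KO_ST mice were again all below the CT mice, with a log2 fold change of -0.33 (SE 0.121, adjusted p = 0.501 by limma). The antisense gene Nkx2-2os averaged 31.7 reads, or 28.8% of those of Nkx2-2, with 30, 38 and 51 reads in CT and 20, 33 and 14 in KO_ST. Its mean FPKM was 0.167 in CT and 0.107 in KO_ST, so it too was lower in KO_ST on average, although the groups overlapped in reads and it was not called. Its part in the Nkx2-2 values was not tested.

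edgeR and DESeq2 on the read counts each called the same 3 genes as limma, Gpr17, Nkx2-2 and Sox8, whereas an unmoderated test called 0 of the 32, and Gpr17 was not called without a filter on low expression. The calls for Gpr17 and Nkx2-2 depended on single mice. Without CT replicate 3, KO_ST replicate 2 or KO_ST replicate 3 neither gene was called, and without KO_ST replicate 1 Gpr17 was not. With 1 mouse left out the log2 fold change ran from -0.52 to -0.20 for Gpr17 and from -0.40 to -0.21 for Nkx2-2, and it was smallest for both without CT replicate 3. Without CT replicate 3, 15 of the 32 genes were called, all higher in KO_ST and 13 of them myelin genes, while 4.41% of all genes were called.

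The other genes of this stage were not called. Enpp6, a choline phosphodiesterase of newly formed oligodendrocytes, had an FPKM of 0.747, 0.590 and 1.07 in CT, 0.631, 0.915 and 0.656 in WT_ST and 0.556, 0.556 and 0.669 in KO_ST, and the groups overlapped. Myrf, the factor that switches on myelin genes, had 4.18, 3.45 and 6.60 in CT, 4.24, 6.60 and 5.72 in WT_ST and 4.57, 5.42 and 5.59 in KO_ST. Its lowest mice were CT replicates 1 and 2 and its highest WT_ST replicate 2 and CT replicate 3, as for many myelin genes. Bmp4, a ligand made by cells that commit to differentiation, ranged from 0.499 to 1.29 in CT, 0.619 to 1.36 in WT_ST and 0.769 to 1.17 in KO_ST.

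Ratios of 6 pairs of genes within a mouse were chosen after the values were seen and were not tested. Nkx2-2 over Sox10, with Sox10 made throughout the lineage, was 0.195, 0.177 and 0.178 in CT, 0.155, 0.142 and 0.120 in WT_ST and 0.143, 0.102 and 0.106 in KO_ST. Both stressed groups lay below CT in this ratio. Gpr17 over Mbp was 0.0343, 0.0334 and 0.0290 in CT, 0.0320, 0.0224 and 0.0183 in WT_ST and 0.0247, 0.0237 and 0.0206 in KO_ST, so that WT_ST overlapped CT. Mog over Mbp lay between 0.0363 and 0.0450 and Mag over Mbp between 0.0805 and 0.115 in all mice. Gpr17 over Pdgfra was 0.959 to 1.61 in CT, 0.908 to 1.22 in WT_ST and 0.874 to 0.930 in KO_ST. Sox8 over Sox10 was 1.10 to 1.61 in CT, 1.22 to 1.48 in WT_ST and 1.58 to 2.0 in KO_ST. Of the 6 ratios, Nkx2-2 over Sox10 was the one in which both stressed groups lay apart from CT.

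**Figure D4:**
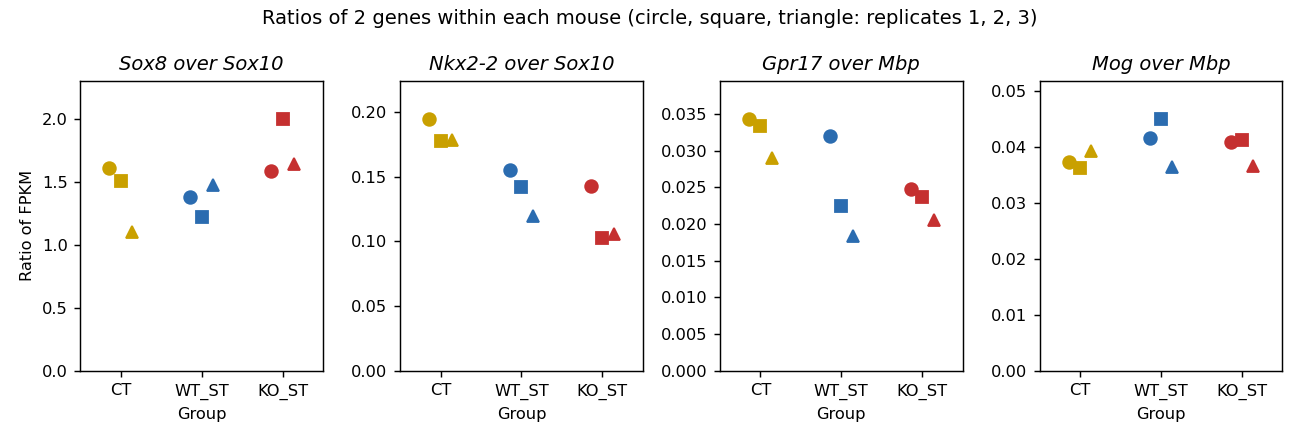
Ratio of the FPKM of 2 genes within each mouse (vertical, from 0) by group (horizontal), each point a mouse. Nkx2-2 over Sox10 was 0.177 to 0.195 in CT and at most 0.155 in the stressed mice, while Mog over Mbp stayed between 0.0363 and 0.0450.

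KO_ST against WT_ST compared the genotypes among stressed mice. Of the 32 genes, 1 was called, where 2.0% of all tested genes were, and 0.946% were called higher. This was Sox8, a SOX factor that acts beside Sox10 in oligodendrocytes and is also made by astrocytes. Its FPKM was 9.89, 9.85 and 11.7 in CT, 9.97, 11.1 and 10.6 in WT_ST and 11.4, 14.4 and 13.3 in KO_ST. The KO_ST mice were all above the WT_ST mice, as for 4.99% of tested genes, and the lowest of them overlapped CT. The log2 fold change was 0.29 against WT_ST (SE 0.088, adjusted p = 0.756) and 0.31 against CT (SE 0.101, adjusted p = 0.499), both by limma. edgeR and DESeq2 also called Sox8 alone among the 32 between the stressed groups. In the same comparison 9 of 10 astrocyte markers had a positive log2 fold change, as did 49.3% of tested genes. At an unadjusted p under 0.05 by limma were 3 of the 10, against 5.82% of tested genes, and 0 were called. The part of astrocytes in the level of Sox8 was not tested.

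Without KO_ST replicate 2 Sox8 was called in neither comparison, nor was it against WT_ST without WT_ST replicate 1 or against CT without CT replicate 1 or 2. Over all fits that left out 1 mouse its log2 fold change was positive, from 0.21 to 0.38 against WT_ST and from 0.24 to 0.40 against CT. Sox8 lies on chromosome 17 (25565893 to 25570686, GRCm38.p6), 2.83 Mb from Fkbp5 (28398753 to 28486149). Within 5 Mb of Fkbp5, 11 of 198 tested genes (5.56%) were called in KO_ST against WT_ST, against 1.93% of genes elsewhere. In KO_ST against CT 11 (5.56%) were called, against 3.53% elsewhere, and in WT_ST against CT 2 (1.01%), against 2.47% elsewhere. Sox8 itself is counted among the 11 in both comparisons of KO_ST. Every KO_ST mouse carried the deleted allele, so loss of Fkbp5 and the sequence linked to that allele cannot be told apart. The antisense gene 2810468N07Rik averaged 1084 reads, 63.1% of those of Sox8, and had a log2 fold change of 0.03 between KO_ST and CT.

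Sox10, the partner of Sox8, had an FPKM of 6.13, 6.53 and 10.6 in CT, 7.24, 9.06 and 7.16 in WT_ST and 7.18, 7.21 and 8.11 in KO_ST, with a log2 fold change of -0.03 against WT_ST (95% interval -0.26 to 0.19). Olig2, which sets the lineage, had 6.62, 7.70 and 8.53 in CT, 5.85, 7.14 and 6.19 in WT_ST and 5.64, 7.22 and 7.999 in KO_ST. All groups overlapped for both. Olig1, its neighbour on chromosome 16, ranged from 25.8 to 37.1 in CT, 24.3 to 28.7 in WT_ST and 24.5 to 27.3 in KO_ST.

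**Figure D5:**
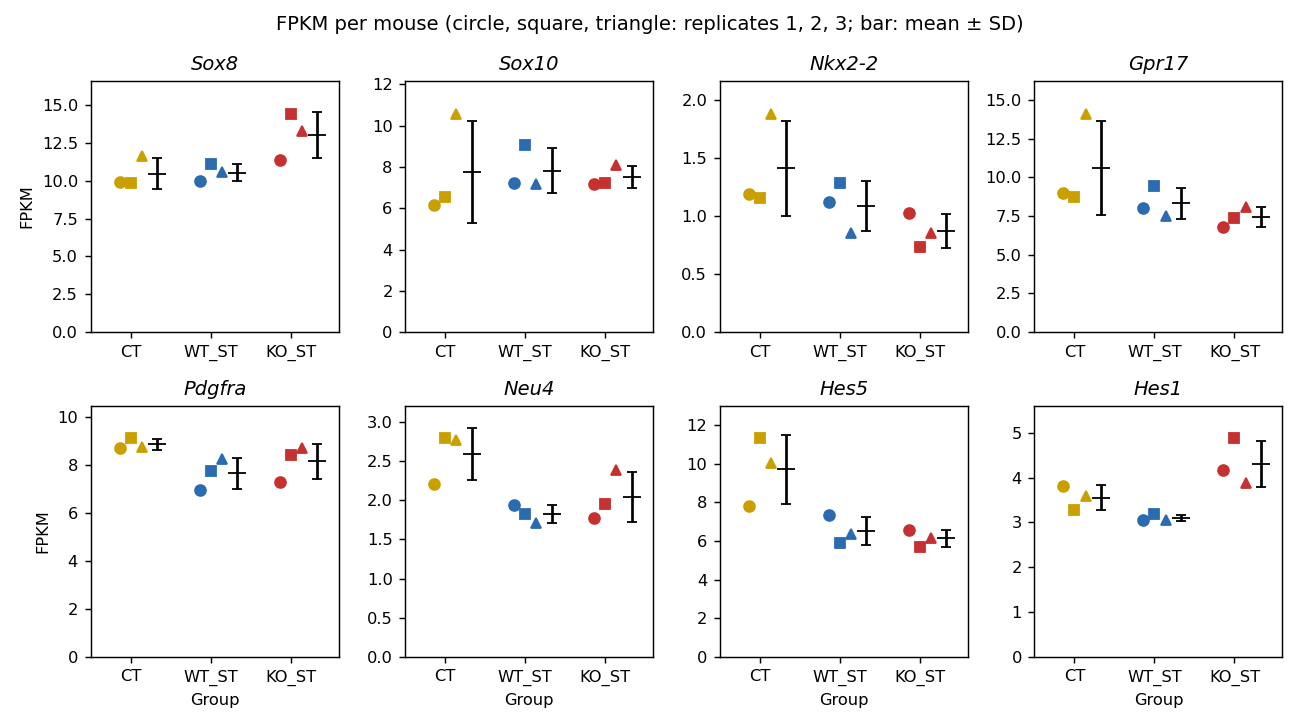
FPKM (vertical, from 0) of 5 lineage genes and of Neu4, Hes5 and Hes1 in each mouse by group (horizontal), with group mean ± SD over 3 mice. The 3 KO_ST mice were above all WT_ST mice for Sox8 and Hes1, and below all CT mice for Gpr17, Nkx2-2 and Hes5.

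Between the stressed groups, the median change of the 19 myelin genes was -0.12 on the log2 scale and that of all tested genes -0.0015, and 0 of the 19 were called. Of the 19, 4 were positive, where 49.3% of tested genes were. The lowest was Fa2h, which makes the hydroxylated fatty acids of myelin lipids, at -0.22 (95% interval -0.54 to 0.11), and the highest was Gjb1, a gap junction protein, at 0.12 (-0.11 to 0.35). Mal, Trf (transferrin), Nkx6-2 and Opalin lay between -0.21 and -0.19. Ugt8a, which makes galactocerebroside, Ermn, Tspan2, Gpr37 and Cntn2 lay between -0.14 and 0.04. With WT_ST replicate 1 left out, 9 myelin genes were called, all lower in KO_ST, while 2.38% of all genes were called. The median was then -0.29, but 0.016 without WT_ST replicate 2, where 11 of the 19 were positive. The genes called were Cldn11, Ermn, Fa2h, Mal, Mbp, Mog, Nkx6-2, Opalin and Ugt8a.

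Hes1, another Notch target, was called higher in KO_ST than in WT_ST. Its FPKM was 3.82, 3.27 and 3.58 in CT, 3.06, 3.18 and 3.06 in WT_ST and 4.17, 4.87 and 3.87 in KO_ST. The KO_ST mice were all above the WT_ST mice, as for 4.99% of tested genes, with a log2 fold change of 0.37 (SE 0.0855, adjusted p = 0.59 by limma). Hes1 was the 1 called gene of the 23 precursor signals in this comparison, where 0.946% of all tested genes were called higher.

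A list of 25 tested genes of mature oligodendrocytes outside the 32 held 0 genes called by limma in each of the 3 comparisons, and 0 at an unadjusted p under 0.05. Of these, 22 had a positive log2 fold change in WT_ST against CT, 19 in KO_ST against CT and 4 in KO_ST against WT_ST. Of all tested genes, 51.3%, 51.0% and 49.3% were positive in the same order. An unadjusted p under 0.05 by limma was found in 7.86%, 9.46% and 5.82% of all tested genes. The shares of all tested genes called are given with each comparison above. Lists of 6 other genes of differentiating cells and of 15 genes of the axon and of glial partners also held 0 genes called by limma in each comparison. At an unadjusted p under 0.05 they held 0, apart from 2 axon and partner genes in KO_ST against CT and 1 in KO_ST against WT_ST. These are 2 and 1 of 15, where 9.46% and 5.82% of all tested genes had such a p.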

How the data were processed

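RNA of the prefrontal cortex was sequenced as 101-bp read pairs from stranded libraries, taken here as 1 per mouse. By the submitters' processing notes the authors used HISAT2 2.1.0, Bowtie2 2.3.4.1 and StringTie 1.3.4d with mm10. They deposited, for each gene and mouse, the read count without normalization and the FPKM, which is scaled for length and mapped reads. Whether counting used strand is not given in the sources used here, so overlapping genes are named beside the values they may share.

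FPKM of the deposited files were taken as log2(FPKM + 1), quantile normalized over 9 mice and tested with limma 3.58.1 in R 4.3.3, with a mean-variance trend, on the 2 groups compared. Genes with a mean of at least 30 reads were tested. The method was tested on simulated data. Read counts served the alternatives, edgeR 4.0.16 and DESeq2 1.42.0. A stage level is the mean over its genes. No 2 libraries were alike within counting noise (chi-square per degree of freedom at least 32.9). No source used here says outright that tissue was not pooled, so p-values measure the spread between these samples. Depth of 43778471 to 61150128 reads leaves little counting error for most of these genes, so the number of mice limits precision.

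The 32 genes and all gene lists were chosen with earlier results of these data known, so no p-value is given for a list. Values in every mouse are given for called genes, for a set of 12 named lineage genes, and for genes of the other lists that were called. Bcas1 was added after its values were seen. Cell type marker lists were checked, and the level of Fkbp5 over the whole gene was compared with the genotype labels. Replicate numbers are those of the labels, and the mouse numbers in the file headers differ from them for some mice. Promoters and positions come from RefSeq (GRCm38.p6). Figures were drawn with matplotlib 3.10.9.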

Additional observations from a re-analysis of the deposited data

How the results depend on the processing

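Alternatives were a pseudocount of 0.1, no quantile normalization, no filter, a mean FPKM of at least 1, edgeR, DESeq2, an unmoderated test, all 9 mice in 1 fit, the replicate number as a block, and leaving out each mouse. No gene of the 32 reached an adjusted p under 0.05 in any of them. With every mouse kept, no stage median changed sign, but several moved by over 1.5 times. The differentiating median ran from -0.34 (DESeq2) to -0.15 in KO_ST against CT, from -0.19 (pseudocount of 0.1) to -0.12 in KO_ST against WT_ST and from 0.013 (no quantile normalization) to 0.086 (pseudocount of 0.1) in WT_ST against CT, and the lineage factor median from -0.065 (DESeq2) to -0.030 in KO_ST against CT. With 1 mouse left out, the median log2 fold change of the myelin genes ran from 0.049 to 0.46 in WT_ST against CT, -0.039 to 0.32 in KO_ST against CT and -0.29 to 0.016 in KO_ST against WT_ST. That of the differentiating genes ran from -0.12 to 0.10, -0.30 to 0.029 and -0.17 to -0.047, that of the lineage factors from -0.16 to 0.040, -0.14 to 0.11 and -0.013 to 0.13, and that of the precursor genes from -0.18 to -0.090, -0.12 to -0.060 and 0.011 to 0.10. The number of the 32 genes called in KO_ST against CT was 3. It was 0 with the unmoderated test, 2 without a filter (Gpr17 was not called) and 4 with all 9 mice in 1 fit, where Gjb1 was called higher in addition. With 1 mouse left out, 0 to 18 were called in WT_ST against CT, 0 to 15 in KO_ST against CT and 0 to 9 in KO_ST against WT_ST. Beside CT replicate 3 and WT_ST replicate 1, described above, these counts moved without CT replicate 1 (2, Cspg4 and Olig2) and WT_ST replicate 2 (1, Olig2) in WT_ST against CT and without KO_ST replicate 2 in both comparisons of KO_ST (0). In KO_ST against CT, 1 was called without KO_ST replicate 3 (Sox8), 2 without CT replicate 2 (Sox8 lost) and 2 without KO_ST replicate 1 (Gpr17 lost). Without CT replicate 1, 3 were called, with Bmp4 in place of Sox8. Over all genes the calls in WT_ST against CT were 355, 544 with a pseudocount of 0.1, 535 with edgeR, 552 with DESeq2 and 164 unmoderated. In KO_ST against CT they were 512 and 248 unmoderated, and in KO_ST against WT_ST 287, 445 with a pseudocount of 0.1 and 138 unmoderated. They were 542 in WT_ST against CT without CT replicate 3 and 477 in KO_ST against WT_ST without KO_ST replicate 3.

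Replicate numbers of the labels, which differ from the mouse numbers in the file headers for some mice, did not pair the mice: deviations from the group means correlated above 0.1 in 2 of 9 same-number pairs. With the number as a replicate block, 2 of the 32 genes, Bcas1 and Sox8, were called in KO_ST against WT_ST, 4 in KO_ST against CT (Gjb1 in addition) and 0 in WT_ST against CT.

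Some small differences, none of them called, changed sign. In KO_ST against CT, the log2 fold change of Sox10 was -0.0078 without quantile normalization, -0.021 with edgeR and -0.023 with DESeq2. That of Mbp was 0.0044 without quantile normalization, and that of Cnp -0.0099 with edgeR and -0.011 with DESeq2. In KO_ST against WT_ST, that of Cspg4 was 0.013 with edgeR and 0.016 with DESeq2. The cause was not tested.

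With 1 mouse left out, log2 fold changes in WT_ST against CT ran from -0.068 to 0.28 for Sox10, -0.033 to 0.39 for Mbp, -0.035 to 0.39 for Cnp and -0.099 to 0.064 for Enpp6. In KO_ST against CT they ran from -0.10 to 0.24 for Sox10, -0.077 to 0.39 for Mog, -0.14 to 0.28 for Cnp, -0.0086 to 0.52 for Mag, -0.18 to 0.24 for Mbp and -0.18 to 0.041 for Olig2. In KO_ST against WT_ST they ran from -0.088 to 0.10 for Cspg4, -0.095 to 0.062 for Sox10, -0.19 to 0.064 for Myrf, -0.36 to 0.038 for Mog, -0.23 to 0.047 for Mag, -0.20 to 0.081 for Mobp and -0.24 to 0.016 for Cnp. With 3 mice a group, the sign of these differences changed with single mice.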
